A study of Mus with 9 samples.

Results

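Ptgds and 9 other genes of prostaglandin synthesis and signaling were examined in the hippocampus of SAMP8 mice. The 10 genes were taken by symbol from both deposited tables, and each was represented by 1 probe set among the 22206 probe sets listed. Ptgds itself was selected on its measured difference with trigonelline (TG), the deepest of all probe sets in these same tables, so its values are given as a description and were not tested. The set held 7 enzyme genes (Ptgs1, Ptgs2, Ptgds, Hpgds, Ptges, Ptges2 and Ptges3) and 3 receptor genes (Ptgdr, Ptger3 and Ptger4).

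Total hippocampal RNA of 3 groups of male mice was hybridized to Clariom S Mouse arrays, with 3 arrays per group by the sample titles. The series text speaks of duplicate RNA samples instead, and a free-text field of the records names another source, RAW264 cells, against their title, source and tissue, which were followed here. SAMP8 is an inbred mouse strain with naturally accelerated aging and early memory decline, and SAMR1 is its senescence-resistant control strain. Mice were described as 16 weeks old. The study's methods do not state their age when the hippocampus was taken, after treatment and behavioral tests. The SAMR1 and SAMP8 groups were given vehicle alone (saline by the sample labels, water by the study's methods). The TG-treated SAMP8 group was given TG, a plant alkaloid, at 5 mg/kg orally each day over 30 days. The labels add 8 further days of behavioral tests, with TG continued. None of the 3 groups held SAMR1 mice given TG, and SAMR1 stands in for normal aging only as far as another strain can.

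Prostaglandins are lipid messengers made from arachidonic acid. Cyclooxygenases (Ptgs1 and Ptgs2) turn arachidonic acid into prostaglandin H2, and terminal synthases then make prostaglandin D2 (Ptgds, Hpgds) or prostaglandin E2 (Ptges, Ptges2, Ptges3) from it. Both products act through G protein-coupled receptors, with Ptgdr binding prostaglandin D2 and Ptger3 and Ptger4 binding prostaglandin E2. Ptgds encodes the lipocalin-type prostaglandin D synthase, a secreted protein of the cerebrospinal fluid that also carries small lipophilic molecules. In the brain it is known to be made by the leptomeninges, the choroid plexus and oligodendrocytes, and its product promotes sleep.

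Each value below is the authors' group average on the log2 signal scale, in which a difference of 1 is a 2-fold change. The tables give 1 average for each group and no spread between arrays, so differences were not set against replicate error here and no test was run. The p-values that the authors deposited were not used. A difference of at least 1.5-fold (0.585 on the log2 scale) is used as a limit of size, and the share of all probe sets beyond it is given as background. Averages in SAMP8 ran from 2.39 to 19.93. Both tables held identical SAMP8 values, which allowed TG-treated SAMP8 to be set against SAMR1, and all 3 comparisons therefore share groups with one another. Neurod6, a transcription factor of pyramidal neurons, had averages of 14.86 in SAMR1, 14.85 in vehicle SAMP8 and 14.88 with TG and so gave a strong signal in all 3 groups, as the labelled tissue should. Other hippocampal markers differed more, as given below with their list. In a bulk tissue, fewer cells of a type and less RNA per cell cannot be told apart.

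Ptgds lies on chromosome 2 from 25466709 to 25470110 in the mouse build GRCm38. Its averages were 9.39 in SAMR1, 10.26 in vehicle SAMP8 and 7.57 with TG. SAMP8 was the highest of the 3 groups and TG-treated SAMP8 the lowest. The TG-treated average stood 2.69 log2 units under SAMP8 (difference -2.69, 6.45-fold lower), the lowest difference of all 22206 probe sets, as the choice of the gene implies. The next in order were Acta2, smooth muscle actin, with a difference of -2.17, and Zic1, a transcription factor, with -1.91. Between the strains, Ptgds was higher in SAMP8 by 0.87 (1.83-fold), and 1.3% of all probe sets had a larger positive difference in that comparison. Against SAMR1, the TG-treated average was lower by 3.53-fold (difference -1.82), and 8 probe sets lay deeper. The average with TG was thus also under that of the control strain.

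**Figure D1:**
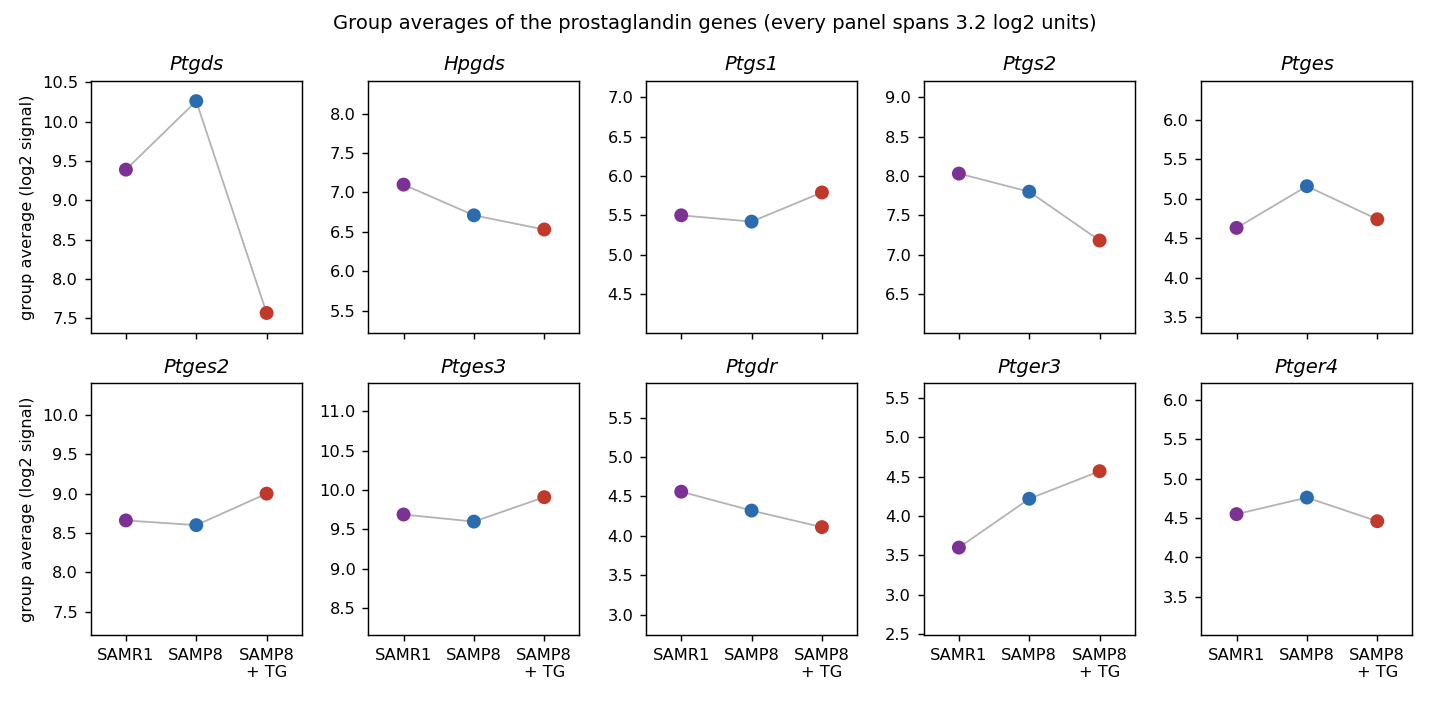
The authors' group averages (vertical axis, log2 signal) of the 10 genes in SAMR1, SAMP8 and TG-treated SAMP8 (horizontal axis), 1 point per group, joined by a line to guide the eye; every panel spans the same number of log2 units around its own middle, so slopes can be compared between genes and levels cannot. Ptgds stands at 10.26 in vehicle SAMP8 and 7.57 in TG-treated SAMP8, and the other 9 genes span between 0.3 and 0.97 over the 3 groups.

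The second prostaglandin D synthase did not share the size of this difference. Hpgds, the glutathione-dependent enzyme of mast cells, microglia and other immune cells, lies on chromosome 6 from 65117293 to 65144981. Its averages were 7.1 in SAMR1, 6.71 in vehicle SAMP8 and 6.53 with TG. It was lower in SAMP8 than in SAMR1 by 0.39 log2 units (difference -0.39) and differed by -0.18 between TG-treated and vehicle SAMP8. With TG, 54.5% of all probe sets differed at least as much in either direction. The distance of Hpgds from SAMR1 in the TG-treated group, -0.57, lay just inside the 1.5-fold limit, and just outside it (-0.6) after quantile normalization.

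Of the cyclooxygenases, Ptgs2 was lower with TG and Ptgs1 was not. Ptgs2, the inducible enzyme that excitatory neurons of the forebrain also express at rest, lies on chromosome 1 from 150100031 to 150108234. Its averages were 8.03 in SAMR1, 7.8 in vehicle SAMP8 and 7.18 with TG. The difference with TG was -0.62 (1.54-fold lower), just beyond the limit, and 2.96% of all probe sets lay deeper. Under quantile normalization of the group averages it was -0.58, just inside the limit. Against SAMR1 the TG-treated average was lower by 1.8-fold (difference -0.85), while SAMP8 and SAMR1 were -0.23 apart. The averages of Ptgs2 were thus ordered SAMR1, SAMP8, TG-treated SAMP8 from high to low, another order than that of Ptgds.

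Ptgs1, the constitutive enzyme, on chromosome 2 from 36216742 to 36258593, had averages of 5.5 in SAMR1, 5.42 in vehicle SAMP8 and 5.79 with TG. Its difference with TG was 0.37, a size that 24.5% of all probe sets reached in either direction. Between the strains it was -0.08, which became 0.01 under quantile normalization, so no direction can be given.

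The prostaglandin E synthases stayed inside the 1.5-fold limit in all 3 comparisons. Ptges, the inducible microsomal enzyme that works with Ptgs2, lies on chromosome 2 from 30889471 to 30931020. It had averages of 4.63 in SAMR1, 5.16 in vehicle SAMP8 and 4.74 with TG. SAMP8 was the highest group, as for Ptgds, with differences of 0.53 between the strains and -0.42 with TG. With quantile normalization the strain difference was 0.65, which is beyond the limit.

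Ptges2, the membrane-associated synthase, on chromosome 2 from 32395890 to 32402740, had averages of 8.66 in SAMR1, 8.6 in vehicle SAMP8 and 9.0 with TG. Ptges3, which is also the Hsp90 cochaperone p23, lies on chromosome 10 from 128058982 to 128077254, and its averages were 9.69, 9.6 and 9.91 in the same order of groups. Both were highest with TG, by 0.4 for Ptges2 and 0.31 for Ptges3 over SAMP8. Such differences were common, as 21.4% of all probe sets differed at least as much as Ptges2 and 32.0% as much as Ptges3.

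Among the receptors, Ptger3 differed most between the groups. Ptger3 encodes the EP3 receptor, which couples mainly to the inhibition of adenylyl cyclase, and lies on chromosome 3 from 157566821 to 157644758. Its averages were 3.6 in SAMR1, 4.22 in vehicle SAMP8 and 4.57 with TG. It was higher in SAMP8 than in SAMR1 by 1.54-fold (difference 0.62), and TG-treated SAMP8 was a further 0.35 higher. Against SAMR1 the TG-treated average was higher by 1.96-fold (difference 0.97), and 1.22% of all probe sets had a larger positive difference. Its signal was in the lowest 25% of all probe sets (mean of the 3 averages under 4.4), a range in which array signals depend most on background.

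Ptger4, the EP4 receptor, which stimulates adenylyl cyclase, lies on chromosome 15 from 5233399 to 5244187. Its averages were 4.55 in SAMR1, 4.76 in vehicle SAMP8 and 4.46 with TG. Ptgdr, the DP1 receptor through which prostaglandin D2 acts in sleep, lies on chromosome 14 from 44851235 to 44859375, and its averages were 4.56 in SAMR1, 4.32 in vehicle SAMP8 and 4.11 with TG. Neither receptor reached the limit in any comparison. Ptgdr was lowest with TG, as Ptgds was, but the difference from SAMP8 was -0.21, and its signal was also in the lowest 25%.

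Counted over the set, 2 of the 10 genes were beyond 1.5-fold between SAMP8 and SAMR1, both higher in SAMP8 (Ptgds and Ptger3), against 11.1% of all probe sets in either direction, 5.0% higher and 6.08% lower. With TG, 2 of 10 were beyond the limit, both lower (Ptgds and Ptgs2), against 8.21% in either direction, 4.48% higher and 3.74% lower. As the choice of Ptgds used this comparison, nothing is read from that count. Between TG-treated SAMP8 and SAMR1 the count was 3, with Ptgds and Ptgs2 lower and Ptger3 higher, against 10.5% in either direction, 5.62% higher and 4.83% lower. At 1.3-fold the counts in the 3 comparisons were 4, 4 and 5, against backgrounds of 26.6%, 23.3% and 26.3%, and at 2-fold they were 0, 1 and 1, against 2.31%, 0.815% and 1.85%. The median difference of the 9 genes other than Ptgds was -0.08 in SAMP8 vs SAMR1, where all probe sets had 0.0. It was -0.18 with TG (all probe sets 0.01) and 0.11 in TG-treated SAMP8 vs SAMR1 (all probe sets -0.01). Without Ptgds, 1 of 9 genes was beyond the limit in each of the first 2 comparisons and 2 of 9 in the third. These counts are too small to be set apart from the background shares. The other 9 genes did not take one direction with TG, as 4 averages were higher and 5 lower.

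**Figure D2:**
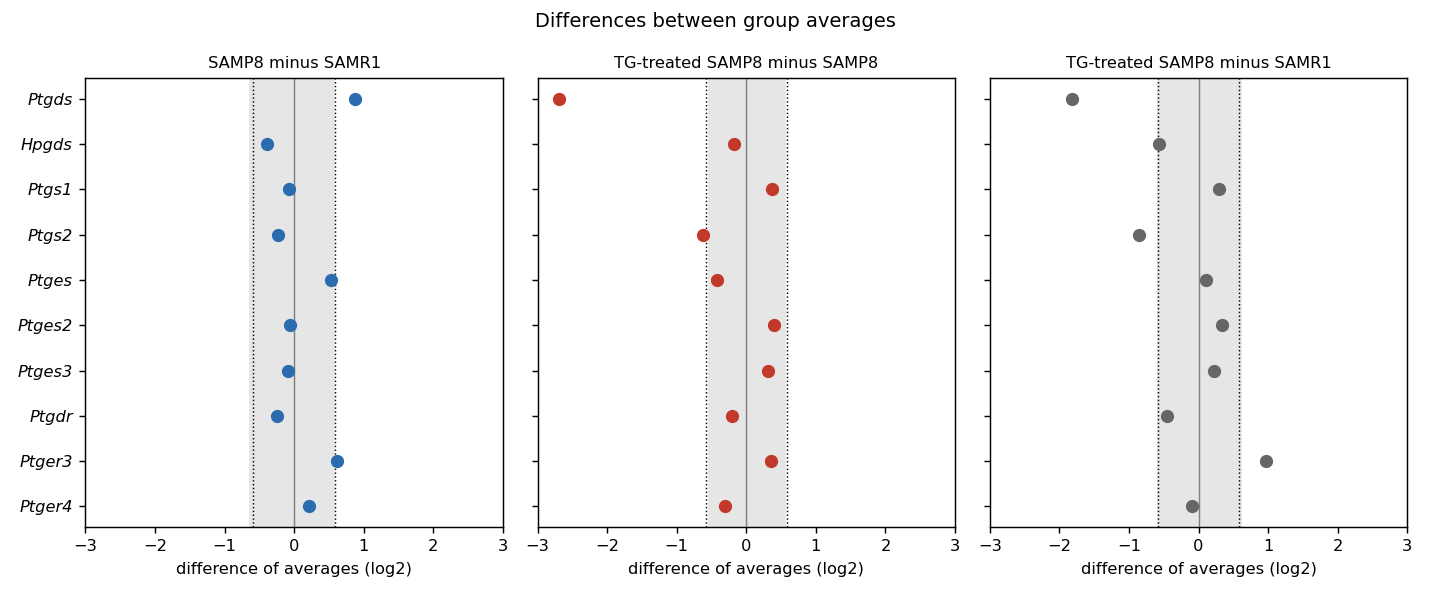
Differences between the authors' group averages (horizontal axes, log2) of the 10 genes in the 3 comparisons; points are single genes, dotted lines mark 1.5-fold in either direction, and the grey band holds the middle 90% of all probe sets. Ptgds lies far left of the band with TG (-2.69) and Ptger3 right of it in TG-treated SAMP8 vs SAMR1 (0.97).

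The rest of the prostanoid route was covered by 4 lists, of which 27 genes had a probe set of their own. In SAMP8 vs SAMR1, 0 of the 27 were higher and 1 lower (Tbxas1) by 1.5-fold or more, where all probe sets had 5.0% and 6.08%. With TG, 0 were higher and 1 lower (Dagla), against 4.48% and 3.74%. In TG-treated SAMP8 vs SAMR1, 1 was higher and 2 lower, against 5.62% and 4.83%. Shares this close to the background, or under it, say nothing particular of these genes. Their median differences were 0.16, -0.08 and 0.08 in that order.

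Genes for the release of arachidonic acid include the phospholipases A2 and, in brain, the lipases that make and break down the endocannabinoid 2-arachidonoylglycerol. Of 12 measured, 9 were higher in SAMP8 than in SAMR1, all inside 1.5-fold, with a median of 0.32. With TG their median was -0.01 and 1 gene was beyond the limit. That gene was Dagla, the diacylglycerol lipase of postsynaptic neurons, with averages of 10.58 in SAMR1, 11.08 in vehicle SAMP8 and 10.2 with TG (difference with TG -0.88, 1.84-fold lower).

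The other terminal synthases were 4 genes, with a median of 0.09 with TG. Tbxas1, thromboxane synthase, stood at 5.67 in SAMR1, 5.03 in vehicle SAMP8 and 4.93 with TG. It was thus lower in both SAMP8 groups than in SAMR1, by 1.56-fold without TG (difference -0.64) and 1.67-fold with it (-0.74). After quantile normalization the strain difference was -0.54, inside the limit. Fam213b, a prostaglandin F synthase now called Prxl2b, stood at 6.87, 7.33 and 7.59 and was 1.65-fold higher with TG than in SAMR1 (0.72). All 6 other prostanoid receptor genes, among them the second prostaglandin D2 receptor Ptgdr2, had lower averages with TG than in vehicle SAMP8. The differences ran from -0.38 to -0.03, all inside 1.5-fold, with a median of -0.2 (all probe sets 0.01). Signals were low, with list means of 4.25 in SAMR1, 4.43 in vehicle SAMP8 and 4.23 with TG. These lie near the low-signal limit of 4.4, so nothing is read from the shared direction. Ptger1, the EP1 receptor, had averages of 5.69 in SAMR1, 5.56 in vehicle SAMP8 and 5.24 with TG.

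Prostaglandin transport and breakdown was covered by 5 genes. Hpgd, the dehydrogenase that begins the breakdown of prostaglandins, had averages of 6.77 in SAMR1, 6.64 in vehicle SAMP8 and 6.09 with TG. Its difference with TG was -0.55, inside the limit, and -0.68 against SAMR1, beyond it. Abcc4, an exporter of prostaglandins, stayed between 7.35 and 7.57 in the 3 groups.

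**Figure D3:**
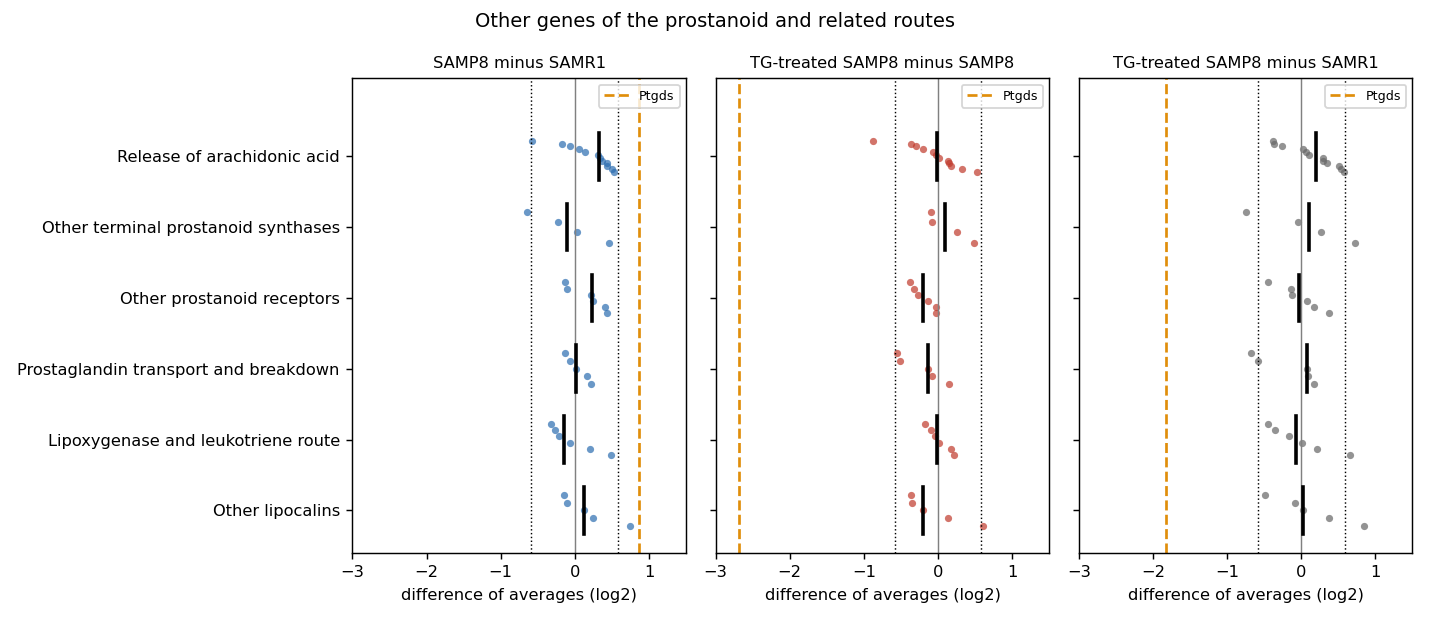
Differences between group averages (horizontal axes, log2) of the genes in 6 lists in the 3 comparisons; each point is a gene, the black bar is the median of the list, dotted lines mark 1.5-fold and the dashed orange line marks Ptgds. In the middle panel Dagla (-0.88) is the lowest of the listed genes. Ptgds lies below all of them there, as its choice for the deepest difference implies.

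The genes known for the cells that make Ptgds were then set beside it. Meningeal markers had a mean of 6.02 in SAMR1, 6.35 in vehicle SAMP8 and 5.86 with TG over 20 genes, so their mean was also highest in SAMP8 and lowest with TG. With TG, 9 of the 20 were lower by 1.5-fold or more and 0 higher, where 3.74% of all probe sets were lower, and the median was -0.34. In SAMP8 vs SAMR1, 7 were higher and 2 lower, against 5.0% and 6.08% of all probe sets, with a median of 0.29. In TG-treated SAMP8 vs SAMR1, 0 were higher and 1 lower, against 5.62% and 4.83%, with a median of -0.14. Ptgds differed by -1.82 in that comparison, so the list did not share the size of that difference. The list was not uniform. With TG, 14 of the 20 averages were lower and 6 higher, the highest difference being 0.46. Dcn, decorin of fibroblasts, differed by -0.77 with TG and by -0.51 between the strains. Igfbp2, a binding protein of insulin-like growth factors, differed by -0.44 and 0.67, and Ogn, osteoglycin, by -1.1 and 0.72. Signals of this kind have no zero, so no marker was listed at 0. The list was chosen with earlier results of these data known, and it holds Igf2 and Fmod, which differed with TG by -1.89 and -1.88. Its counts are therefore a description only. The part of the meningeal markers in the Ptgds difference was not tested.

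Oligodendrocyte markers mostly had higher averages with TG. Of 16 measured, 15 had higher averages in TG-treated than in vehicle SAMP8, 4 of them by 1.5-fold or more (4.48% of all probe sets), and 0 were lower to that extent. Their median was 0.42, and the mean over the list was 10.2 in SAMR1, 10.14 in vehicle SAMP8 and 10.55 with TG. Mbp, a major myelin protein, had a difference with TG of 0.47, and Mal, a myelin proteolipid, of 0.81. Choroid plexus markers had a median of 0.03 with TG over 14 genes. Of these, 2 were higher and 1 lower beyond the limit, against 4.48% and 3.74% of all probe sets. The list means of these markers were 5.4, 5.39 and 5.46. Their leading gene Ttr, which encodes the transport protein transthyretin, was at 8.45 in SAMR1, 9.33 in vehicle SAMP8 and 10.05 with TG. The potassium channel gene Kcnj13 and the secreted antagonist Sostdc1 differed with TG by 0.01 and 0.66. In the whole choroid plexus list 8 averages were higher and 6 lower with TG, and the differences ran from -0.79 to 0.72. The meningeal, oligodendrocyte, smooth muscle and endothelial medians with TG kept their sign and their counts beyond the limit when each group's median was subtracted and after quantile normalization, and the choroid plexus median, which was near 0, became -0.02 after the latter. The medians with TG of the meningeal, choroid plexus and oligodendrocyte lists were thus -0.34, 0.03 and 0.42. These lists were chosen with earlier results of these data known, so nothing is read from their order. Whether any of them had a part in the Ptgds difference was not tested.

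Vessel markers also had negative medians with TG. Smooth muscle genes had a median of -0.3 over 9 genes. By 1.5-fold or more, 3 were lower and 1 higher, against 3.74% and 4.48% of all probe sets. The list means were 5.18 in SAMR1, 5.4 in vehicle SAMP8 and 4.98 with TG. Acta2 had averages of 5.52, 7.71 and 5.54 in that order, Myh11, smooth muscle myosin, differed by -0.76 with TG, and Myl9, its light chain, by -0.3. In the whole smooth muscle list 6 averages were lower and 3 higher with TG, the highest difference being 0.71. Between the strains the median of that list was 0.0. Of 11 endothelial genes, 10 had lower averages with TG, 3 of them by 1.5-fold or more (3.74% of all probe sets), with a median of -0.35. Slc2a1, the glucose transporter of the blood-brain barrier, differed by -0.96, Slco1a4, an organic anion transporter, by -1.0, and Flt1, a receptor for vascular endothelial growth factor, by -0.22. The endothelial list means were 7.72, 8.46 and 8.04, and its median difference between TG-treated SAMP8 and SAMR1 was -0.05. One transporter gene, Abcb1a, named after its values were seen, weighed on these means with averages of 6.5, 10.82 and 9.9. The part of these cells in the Ptgds difference was not tested.

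For microglia, a known site of Hpgds and Ptgs1, the list of 16 genes had a median of 0.13 with TG. In this list 1 was higher and 0 lower beyond the limit, against 4.48% and 3.74% of all probe sets. The list means were 6.98, 7.05 and 7.08. Of its leading genes, P2ry12 and Gpr34 differed with TG by -0.43 and 0.18. Astrocyte genes had a median of 0.01 with TG over 10 genes, 0 of them beyond the limit, and Slc1a2, Aldoc and Gja1 differed by -0.03, 0.52 and -0.11. The medians of these lists with TG were thus nearer to 0 than those of the meningeal and oligodendrocyte lists. Markers of hippocampal neurons had a median of 0.34 between the strains over 10 genes, with 3 higher beyond the limit (5.0% of all probe sets). With TG their median was -0.2, with 1 lower beyond the limit (3.74%). In that list Prox1, of granule neurons, differed by -0.85, C1ql3 by -0.39 and Neurod6 by 0.03. Lists of neighbouring brain regions had medians with TG of -0.04 for the thalamus (10 genes) and -0.07 for the striatum (9 genes). In each, 1 gene was lower by 1.5-fold or more (3.74% of all probe sets), and 1 thalamic gene was higher (4.48%). Counts this small cannot be set apart from these shares. Prkcd, the kinase that led the thalamic list with Calb2 and Ntng1, differed by -1.5, against -0.31 and -0.41 for the other two. In the striatal list, Pde10a, Penk and Tac1 differed by 0.09, -0.14 and 0.43. Only 2 blood cell genes had a probe set of their own, Alas2 and Slc4a1, with differences of 0.44 and 0.06.

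**Figure D4:**
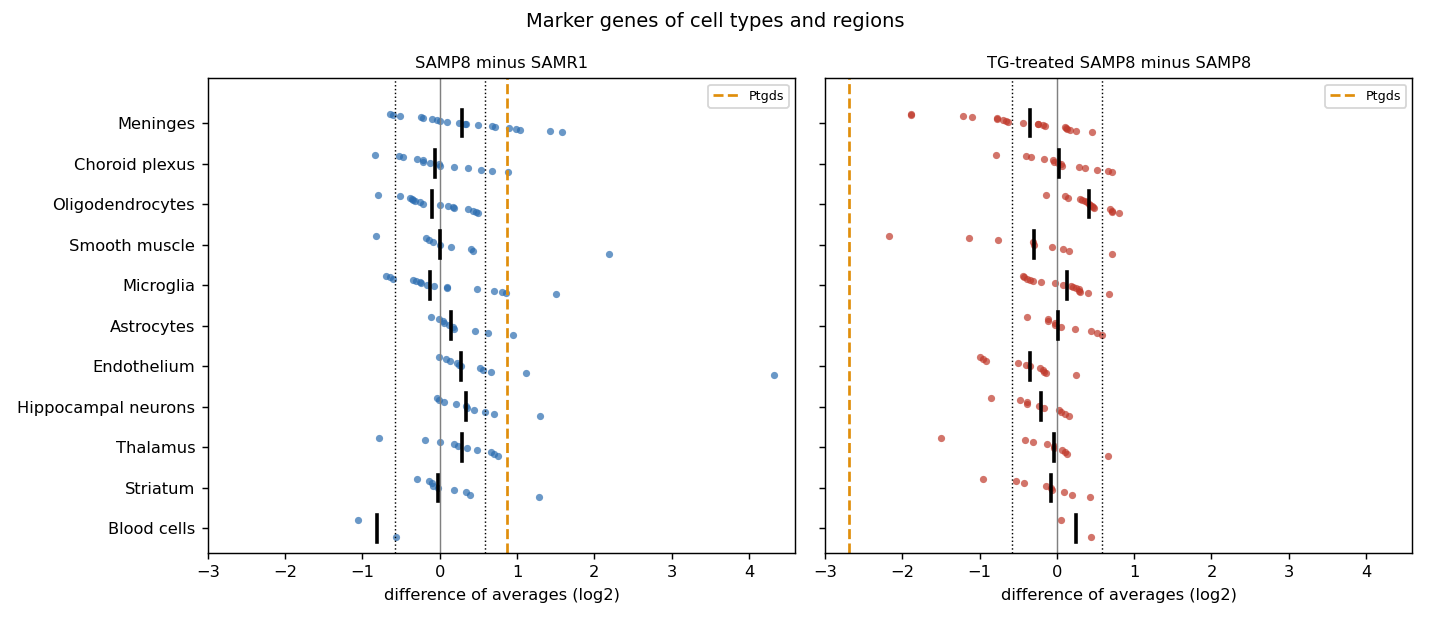
Differences between group averages (horizontal axes, log2) of marker genes of cell types and regions in SAMP8 vs SAMR1 (left) and TG-treated SAMP8 vs SAMP8 (right); each point is a gene, the black bar is the median of the list, dotted lines mark 1.5-fold and the dashed orange line marks Ptgds. In the right panel the meningeal median is -0.34 and the oligodendrocyte median 0.42. All points there lie to the right of Ptgds, as its choice for the deepest difference implies.

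The genes whose pattern over the 3 averages was most like that of Ptgds were found by the distance between their pairs of differences (SAMP8 minus SAMR1 and TG-treated SAMP8 minus SAMP8) among 21153 genes. With 3 averages per gene this is a coarse measure. The nearest was Zic1, a zinc finger transcription factor, at a distance of 0.84 log2 units, with averages of 10.91 in SAMR1, 11.47 in vehicle SAMP8 and 9.56 with TG. Fmod, fibromodulin of the extracellular matrix, followed at 0.98, with averages of 4.66, 6.09 and 4.21. Igf2, insulin-like growth factor 2, was at 1.07, with averages of 7.09, 8.67 and 6.78. Esp31, an exocrine gland peptide, and Actn4, an actinin, were at 1.21 and 1.3. The signal of Esp31 was low, with averages of 4.16 in SAMR1, 4.91 in vehicle SAMP8 and 3.42 with TG. All 5 were highest in SAMP8 and lowest with TG, an order that the search itself selects for. Fmod and Igf2 are also on the list of meningeal markers. Their values were already counted there and add nothing to that count. Of the genes compared, 0 lay within 0.5 of Ptgds.

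Ptgds lies in a cluster of lipocalin genes, and 4 of the 10 genes are on chromosome 2. Within 100 kb of its start, the GRCm38 annotation placed 17 other genes, of which 12 had a probe set. With TG these 12 had a median of -0.06, and 1 was lower and 1 higher by 1.5-fold or more, against 3.74% and 4.48% of all probe sets. Entpd2, an ectonucleotidase, 70.8 kb before Ptgds, had averages of 6.03 in SAMR1, 6.03 in vehicle SAMP8 and 5.31 with TG (difference with TG -0.72). Edf1, a transcriptional coactivator, 91.1 kb after it, had averages of 9.08, 9.12 and 10.11 (0.99). Between the strains, Traf2, an adaptor of tumor necrosis factor receptors, was higher in SAMP8 (0.68, and 1.17 in TG-treated SAMP8 vs SAMR1) and Mamdc4 lower (-0.86). Fbxw5, part of a ubiquitin ligase, was beyond the limit in TG-treated SAMP8 vs SAMR1 alone (-0.75). The nearest measured neighbours, Clic3 at 9.9 kb before Ptgds and the lipocalin gene Lcn12 at 24.1 kb after it, differed with TG by 0.19 and -0.07. The lowest difference among the 12 measured neighbours was that of Entpd2. As Ptgds was chosen for the deepest difference of all probe sets, no neighbour could lie deeper, and nothing is read from this.

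**Figure D5:**
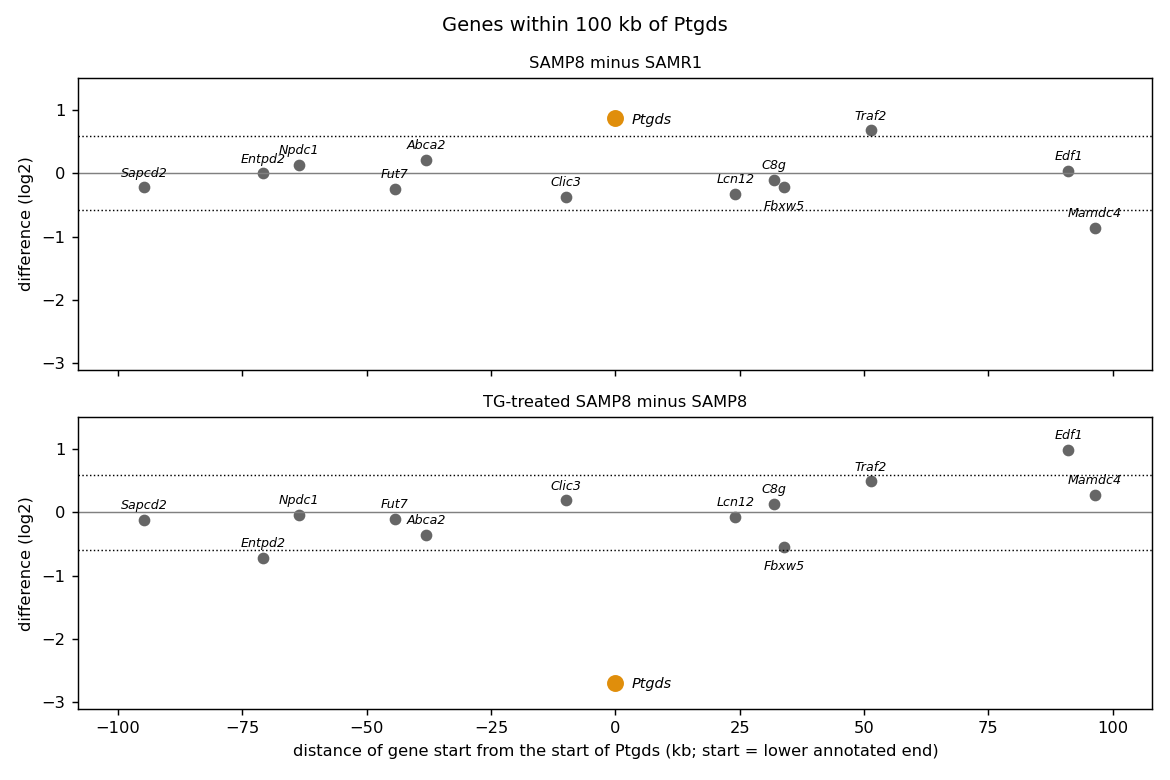
Differences between group averages (vertical axes, log2) of Ptgds (orange, at 0) and the 12 measured genes within 100 kb (grey) against the distance of their start from that of Ptgds in kb, for SAMP8 vs SAMR1 (top) and TG-treated SAMP8 vs SAMP8 (bottom); dotted lines mark 1.5-fold. In the bottom panel the neighbours lie between -0.72 and 0.99 and Ptgds at -2.69.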

How the data were processed

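The 9 records are Clariom S Mouse arrays of hippocampal RNA, 3 for each group. The authors summarized array intensities by SST-RMA in Transcriptome Analysis Console (version 4.0.1 in the series text), and the authors' 2 deposited tables list a log2 average for each group, annotated on mm10 (GRCm38). The deposited fold change, p-value and adjusted p-value columns hold the authors' own comparisons and were not used. SST-RMA places arrays on a common distribution, so a shift shared by most genes would not be seen.

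Groups follow the sample titles. Differences of averages were computed for 3 comparisons. Averages carry 2 decimals, and 836 probe sets with several symbols and 3 with none were left out of gene lists. Positions came from the RefSeq table of GRCm38.p6, matched by symbol for 10 of 10 genes. No sequences were used here. The members, the pathway and marker lists and the limits were chosen with earlier results of these data known. Named are the 10 genes, listed genes beyond 1.5-fold in any comparison and the gene of highest signal in each pathway list, the 3 of highest signal in each marker list, the 5 genes nearest to Ptgds in pattern, and neighbours within 100 kb beyond 1.5-fold. Values were known when Ptgdr2, Clic3, Lcn12 and Abcb1a were picked for mention, and 2 marker genes that the rule names are not reported here. Alternatives were other fold limits, 2 other scalings, a filter on low signal and another choice of probe set. The code was tested on simulated data (Python 3.11.15, numpy 2.4.6, pandas 2.3.3, matplotlib 3.10.9). Precision is limited by how few arrays stand behind each average.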

Additional observations from a re-analysis of the deposited data

How the results depend on the processing

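The Ptgds differences and the medians of the other 9 genes, 18 recomputed values in all, moved by at most 0.15 log2 units when each group's median was subtracted, when the averages were quantile normalized or, for the medians, when the lowest 25% of signal was left out or the brightest probe set was used (each gene has 1, so this changed nothing). As no spread between arrays was analysed here, a move of over 0.1 was counted as a change, and 1 value made one: the Ptgds difference between SAMP8 and SAMR1, 0.87 as deposited, was 0.72 after quantile normalization. The counts of genes beyond the limit depended on where it was set. At 1.3-fold they were 4 in SAMP8 vs SAMR1, 4 with TG and 5 in TG-treated SAMP8 vs SAMR1, and at 2-fold they were 0, 1 and 1, the 1 being Ptgds. Quantile normalization left 1 gene with TG, since Ptgs2 came inside the limit. It raised the count to 3 in SAMP8 vs SAMR1, by Ptges, and to 4 in TG-treated SAMP8 vs SAMR1, by Hpgds. Leaving out low signal left 1 in SAMP8 vs SAMR1 and 2 in TG-treated SAMP8 vs SAMR1, since Ptger3 has low signal. Rescaling of the gene lists was added after seeing the data. No paired analysis was possible because the tables hold group averages without replicate numbers, and for the same reason no array could be left out.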

Other observations

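The lipoxygenase route, which makes leukotrienes from arachidonic acid, had a median difference of -0.02 with TG over 6 genes. Of these, 0 were beyond 1.5-fold in that comparison or in SAMP8 vs SAMR1, against 8.21% and 11.1% of all probe sets. Lta4h, which makes leukotriene B4, had averages of 7.53 in SAMR1, 8.02 in vehicle SAMP8 and 8.19 with TG, and was 1.58-fold higher in the TG-treated group than in SAMR1 (difference 0.66). Among 5 other lipocalin genes, the family to which the Ptgds protein belongs, the median with TG was -0.2. Apod, apolipoprotein D, had averages of 11.23, 11.98 and 11.61 and was highest in SAMP8, as Ptgds was, with differences of 0.75 between the strains and -0.37 with TG. Rbp4, the retinol carrier of plasma, had averages of 5.78, 6.02 and 6.62 and was highest with TG, by 0.6 over SAMP8, which was 0.57 and inside the limit under both other scalings.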
